A study of Mus musculus with 2 samples.

Results

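The receptor system for calcitonin gene-related peptide (CGRP) and adrenomedullin was described through 6 genes of the 55487 in the count table. They are Calcrl, the shared receptor, Ramp1, Ramp2 and Ramp3, its accessory proteins, and Calca and Adm, the genes of the 2 peptides. The genes were listed by symbol, and no measured value chose them. All 6 were found in the table.

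CD45+ cells were sorted from the cecum, the pouch at the start of the large intestine, of 4 male mice aged 101 days. The 2 control mice (CTRL 1 and CTRL 2) were littermates of the 2 Trpv1-ADC mice (Trpv1-ADC 1 and Trpv1-ADC 2), in which Trpv1+ neurons were activated. For all samples the labels list intraperitoneal AAV in newborns and 7 injections of CNO given every other day. Trpv1-Cre.B6 as well as Trpv1-WT.B6 are given as strains, and the strain of a given mouse is not stated. In a Trpv1-Cre strain the recombinase is driven from Trpv1, a channel gene of pain-sensing neurons, and 6 Trpv1 UMIs (unique molecular identifiers, each standing for 1 captured transcript) were counted in all cells kept. The 4 mice were tagged with antibody-borne hashtags and pooled in 1 droplet run, and each mouse was 1 replicate.

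CGRP and adrenomedullin are peptides that act on blood vessels, nerves and immune cells. CALCRL binds neither peptide well by itself: with RAMP1 it forms the CGRP receptor, and with RAMP2 or RAMP3 it forms the adrenomedullin receptors. All of these couple mainly to Gs and raise cyclic AMP. In the gut, Trpv1+ sensory fibres are a known source of CGRP. The CGRP messenger RNA of these fibres lies mainly in their cell bodies, outside the gut wall.

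On the mm10 build (GRCm38, GENCODE positions), Calcrl lies on the minus strand at chr2:84330626-84425411 and Ramp1 on the plus strand at chr1:91179822-91225196. Ramp2 is at chr11:101246028-101259546 and Ramp3 at chr11:6658521-6677475, both on the plus strand. Calca lies on the minus strand at chr7:114631478-114636357 and Adm on the plus strand at chr7:110627661-110629820. Ramp2 overlaps Vps25 on the same strand, which had 233 UMIs against 942 for Ramp2. Ramp3 overlaps the antisense gene Gm11978, with 89 UMIs against 21602, and Adm overlaps the antisense Gm28863, with 2 UMIs against 507. The sources used here do not say how overlapping genes were counted, so the values of these 3 genes are uncertain by those amounts.

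The 250 bases before the start site are shown for Ramp3 and Calca, the members lower in Trpv1-ADC past the test in a class or over all cells, from RefSeq on GRCm38.p6 (5 of the 6 members were matched there, all but Ramp2). Ramp3 is read on the plus strand of chr11:6658283-6658532, with capitals marking GGGCGG, the GC box bound by SP1-type factors, or its reverse complement CCGCCC. Calca is read on the minus strand of chr7:114636358-114636607, with capitals marking TGACG, the core of the cyclic AMP response element.
Ramp3: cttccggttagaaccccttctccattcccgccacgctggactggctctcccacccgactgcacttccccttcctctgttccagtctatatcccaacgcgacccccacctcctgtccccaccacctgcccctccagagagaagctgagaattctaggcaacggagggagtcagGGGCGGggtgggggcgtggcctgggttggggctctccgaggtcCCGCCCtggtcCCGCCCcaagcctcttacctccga
Calca: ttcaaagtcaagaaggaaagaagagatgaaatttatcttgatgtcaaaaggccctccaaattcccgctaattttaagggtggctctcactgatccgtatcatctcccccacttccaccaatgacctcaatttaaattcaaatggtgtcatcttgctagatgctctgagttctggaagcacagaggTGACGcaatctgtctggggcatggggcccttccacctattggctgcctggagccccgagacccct
The Ramp3 window held the GC box at -78, -35 and -24 from the start site and had a GC content of 65.2%, against a mean of 53.2% over 32851 mouse promoters of this length. The Calca window held TGACG once, at -65, and had a GC content of 48.0%. Searched on both strands, GGGCGG was in 32.7% of all promoters, TGACG in 17.8% and the full palindrome TGACGTCA, which contains TGACG, in 1.55%. No member window held TGACGTCA, and the Calcrl and Adm windows each held 1 GC box. These matches describe the letters only.

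After filtering, 17519 cells remained, 4165 to 4531 per mouse, with 27586172 to 29905834 UMIs per mouse and medians of 5553 to 5689 UMIs per cell. They fell into 32 clusters and 28 classes, named from fixed marker lists, and 16 classes with at least 20 cells in every mouse were tested. Ptprc, the CD45 gene, was seen in 99.1% of naive CD4 T-like and 97.5% of B-like cells, but in 74.0%, 66.4% and 55.3% of the Adamdec1 fibroblast-like, Mgp fibroblast-like and endothelial-like clusters, which passed the sort as a minority. These and the lymphatic endothelial-like and epithelial-like clusters made up 5.90% of cells in CTRL 1, 3.70% in CTRL 2, 2.84% in Trpv1-ADC 1 and 3.09% in Trpv1-ADC 2. Levels are given as CPM, the UMIs of a gene scaled to the same total in every class and mouse, over the summed cells of a class. Depth and intervals cover counting error only.

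Each of the 6 genes had its own order of cell classes. Calcrl, the receptor that all the RAMPs share, was highest in endothelial-like cells (559 CPM over the 4 mice, range 387 to 711) and in the Adamdec1 fibroblast-like cluster (411 CPM, range 365 to 439), whose ranges overlapped. The lymphatic endothelial-like cells followed at 226 CPM. Among named immune classes the order began with ILC2-like cells (group 2 innate lymphoid cells, 126 CPM), naive CD4 T-like cells (114 CPM) and B-like cells (91.2 CPM), and neighbouring classes in this order mostly overlapped. An unnamed T cell cluster of low depth had 153 CPM, from 17 UMIs. Calcrl was low in macrophage or monocyte-like (22.9 CPM), plasma cell-like (10.0 CPM) and neutrophil-like cells (6.71 CPM). A Calcrl UMI was seen in 91.9% of Adamdec1 fibroblast-like cells (exact 95% binomial interval 88.1% to 94.9%) and in 34.2% of naive CD4 T-like cells, against 1.94% of neutrophil-like cells, whose median depth was 2756 UMIs against 14114 and 5504.

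**Figure D1:**
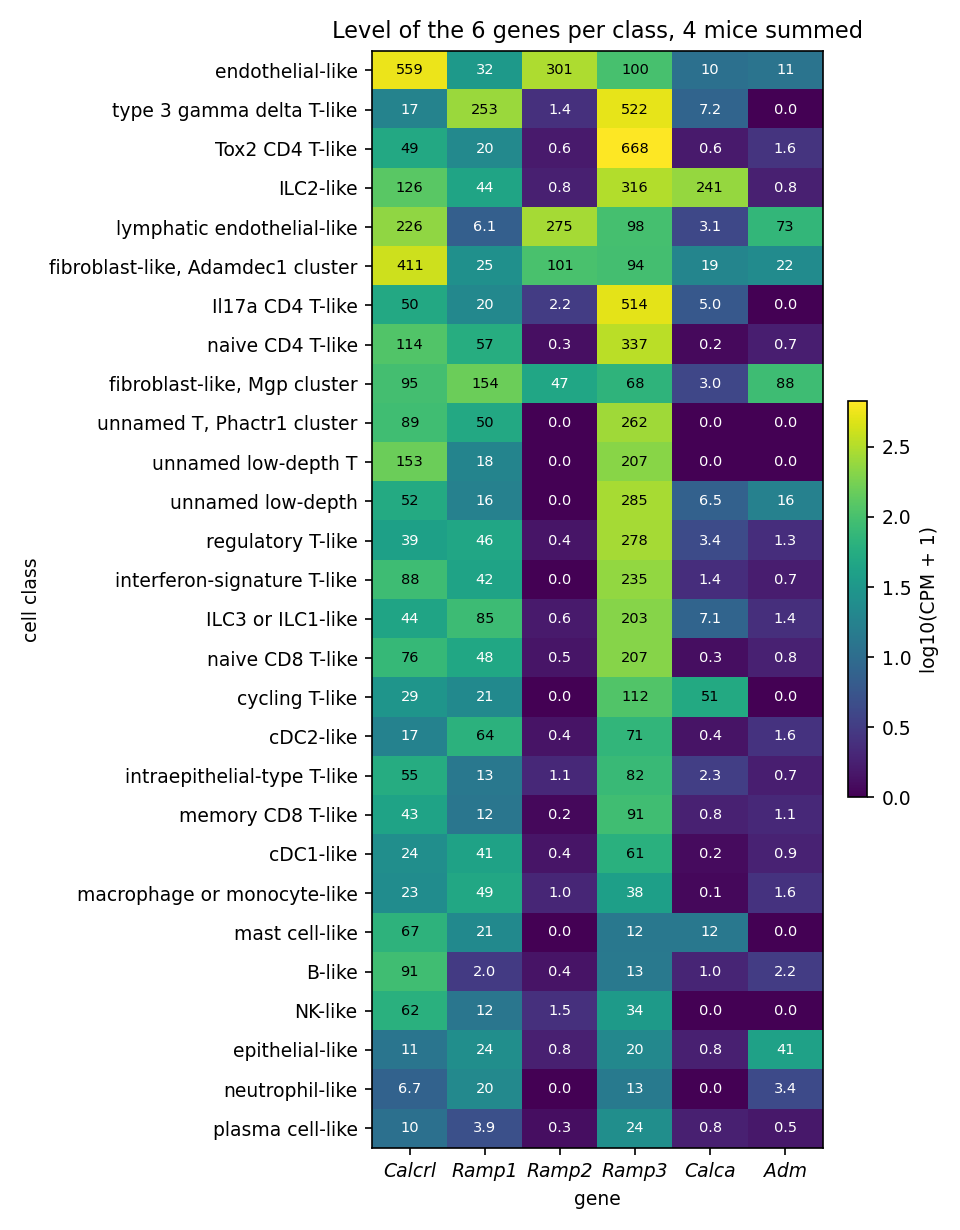
Level of each of the 6 genes (columns) in each cell class (rows), with the 4 mice summed; numbers are CPM and the colour is log10(CPM + 1), to be compared down a column. Calcrl and Ramp2 were highest in endothelial-like cells (559 and 301), Ramp1 in type 3 gamma delta T-like cells (253), Ramp3 in Tox2 CD4 T-like cells (668), Calca in ILC2-like cells (241) and Adm in the Mgp fibroblast-like cluster (88.5).

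Ramp1, which turns CALCRL into the CGRP receptor, was highest in type 3 gamma delta T-like cells, a small class of IL-17-type T cells (113 cells, 253 CPM, range 223 to 325). No mouse of the next class, the Mgp fibroblast-like cluster (154 CPM), reached that range. The ILC3 or ILC1-like cells (85.5 CPM), cDC2-like dendritic cells (63.8 CPM) and naive CD4 T-like cells (57.2 CPM) followed with overlapping ranges. Calcrl in the type 3 gamma delta T-like cells was 17.2 CPM, from 12 UMIs. B-like cells had the reverse pairing, with Ramp1 at 2.03 CPM and Calcrl at 91.2 CPM, ranked 8 of the 28 classes for Calcrl.

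Ramp2, the accessory protein of the main adrenomedullin receptor of vessels, was nearly limited to the non-immune clusters. Of its 942 UMIs, 55 lay outside them. Its level was 301 CPM in endothelial-like, 275 CPM in lymphatic endothelial-like, 101 CPM in Adamdec1 fibroblast-like and 46.6 CPM in Mgp fibroblast-like cells, and no immune class exceeded 2.15 CPM.

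Ramp3, which gives a receptor for adrenomedullin that also binds CGRP weakly, had its 5 highest levels in T cell and innate lymphoid classes. It was highest in Tox2 CD4 T-like cells, which carry follicular helper-type genes (668 CPM), followed by type 3 gamma delta T-like (522 CPM), Il17a CD4 T-like (514 CPM), naive CD4 T-like (337 CPM) and ILC2-like cells (316 CPM), with overlapping ranges between neighbours except where stated by mouse below. Endothelial-like cells had 99.7 CPM, intraepithelial-type T-like cells 81.7 CPM, cDC2-like cells 71.2 CPM and B-like cells 12.99 CPM. An unnamed low-depth cluster was at 285 CPM, from 87 UMIs. A Ramp3 UMI was seen in 84.7% of Tox2 CD4 T-like cells and in 5.89% of B-like cells. Their median depths were 5527 and 4340 UMIs. Free RNA was not estimated, so how much of the B-like share it could give is not known.

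The non-immune clusters also carried T cell transcripts, so their RAMP values were checked in barcodes with no UMI of Ptprc, Cd3e, Trac or Trbc2. In 49 such Adamdec1 fibroblast-like cells Calcrl was 618 CPM and Ramp2 141 CPM, while Ramp3 was 6.82 CPM from 3 UMIs, against 94.4 CPM in the whole cluster. In 28 such endothelial-like cells Calcrl was 578 CPM, Ramp2 326 CPM and Ramp3 170 CPM from 39 UMIs. In 66 such Mgp fibroblast-like cells Ramp1 was 163 CPM and Adm 122 CPM. The top genes of the endothelial-like cluster included Tagln and Acta2, markers of mural cells, so endothelial and mural cells are not separated here.

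The receptor and its partners were then compared within single cells. In endothelial-like cells 56 of the 69 with a Calcrl UMI also had a Ramp2 UMI (81.2%), against 24.0% of the other cells, whose median depth was lower (5907 against 10442 UMIs). In the Adamdec1 fibroblast-like cluster the shares were 70.5% of 251 Calcrl cells and 45.5% of the others. In naive CD4 T-like cells Ramp3 was seen in 66.8% of the 1019 cells with Calcrl and in 68.9% of those without. In Tox2 CD4 T-like cells these shares were 81.5% and 85.4%. In intraepithelial-type T-like cells they were 29.3% and 24.0%, in regulatory T-like cells 55.9% and 51.8%, and in ILC2-like cells 72.6% and 58.3%, with median depths of 6682 and 6207 UMIs in the last. The lymphoid shares pool the mice of both groups, and their differences were not tested. No direction is read from them.

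The comparison of Trpv1-ADC with CTRL asked whether activation of Trpv1+ neurons went with a change in these genes. Over the 16 tested classes 51 member and class pairs had enough counts for edgeR's quasi-likelihood test, and 2 passed an adjusted p of 0.05, both for lower Ramp3 in Trpv1-ADC. Of all gene and class pairs tested, 0.758% passed, 0.396% in the lower direction. Calcrl (16 classes), Ramp1 (13), Ramp2 (2), Calca (2) and Adm (2) passed in no single class. At an unadjusted p under 0.05 there were 4 of 16 classes for Calcrl and 2 of 13 for Ramp1, where 9.45% of all gene and class pairs passed.

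Summed over the intraepithelial-type T-like class, named from a marker list with Cd160, Itgae and granzymes, Ramp3 fell. Its level was 106 CPM in CTRL 1 and 93.2 CPM in CTRL 2, against 44.9 CPM in Trpv1-ADC 1 and 41.6 CPM in Trpv1-ADC 2. The log2 fold change was -1.26 ± 0.163 (SE, n = 2 against 2 mice, edgeR adjusted p = 0.00182), a level 2.39-fold lower, in a class where 7.39% of all genes passed. The counts behind it were 263, 297, 63 and 48 UMIs. Both clusters of the class showed a fall as a whole. It was -1.31 ± 0.19 in the larger (edgeR adjusted p = 0.00236, where 5.98% of genes passed). In the smaller it was -1.24 ± 0.283 (edgeR adjusted p = 0.0448, where 1.69% passed). The larger was itself mixed, as the finer clusters below show. The class held 10.1%, 13.9%, 6.28% and 4.72% of the cells of CTRL 1, CTRL 2, Trpv1-ADC 1 and Trpv1-ADC 2.

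The mice differed in which cells filled this class. Finer clustering, looked into after seeing the data, split it into 3 clusters that differ in Ramp3. The cluster richest in Ramp3 (126 CPM), with Kit and Ikzf2 among its leading genes, held 233 and 246 cells of the CTRL mice and 49 and 22 of the Trpv1-ADC mice. The poorest (43.3 CPM), led by Dapk2 and Trgc4, held 40 and 110 CTRL cells and 152 and 121 Trpv1-ADC cells. The granzyme cluster, led by Gzma and Ccl5 (64.4 CPM), held 170 and 222 against 77 and 69 cells. The smaller cluster of the coarser split held 166 and 229 against 75 and 69 cells, near these counts. By cell counts, the larger one thus held mostly the clusters richest and poorest in Ramp3. The part of that mix in its fall was not tested.

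Within each of these 3 clusters both CTRL mice were above both Trpv1-ADC mice, and 1 of the 3 passed. In the whole class 21.7% of tested genes were arranged so, and the share within the finer clusters was not computed. The clusters come from the same mice, so they are not separate evidence. In the granzyme cluster Ramp3 was 81.9 and 70.6 CPM in CTRL and 28.6 and 35.4 CPM in Trpv1-ADC (-1.27 ± 0.284, edgeR adjusted p = 0.0433, where 1.67% of genes passed). In the Kit cluster it was 134 and 129 CPM against 94.9 and 89.7 CPM, the latter from 25 and 10 UMIs (-0.46 ± 0.261, edgeR adjusted p = 0.719). In the Dapk2 cluster it was 47.8 and 59.8 CPM against 34.7 and 37.8 CPM (-0.69 ± 0.33, edgeR adjusted p = 0.585). With the same mix of the 3 clusters in every mouse, the level was 92.0 and 89.1 CPM in CTRL and 54.7 and 56.1 CPM in Trpv1-ADC. The groups stayed apart, with a narrower gap than with each mouse's own mix.

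Markers of other T cells in this class gave different pictures as sums and gene by gene. The summed level of the 9 naive CD4 T cell markers, from a class richer in Ramp3, was 1241 and 1176 CPM in the CTRL mice and 1323 and 1346 CPM in the Trpv1-ADC mice. The summed CD4 effector markers were 1167, 1257, 1199 and 1125 CPM. Gene by gene, the naive CD4 and naive CD8 lists, which share genes, each had a median log2 fold change of -0.33. Of their 9 and 7 tested genes 2 in each passed as lower, and 1 and 0 as higher. The CD4 effector and memory CD8 lists had medians of -0.02 and 0.03, and 1 gene in each passed, as lower. In this class 3.78% of all genes passed as lower and 3.61% as higher. The part of such cells in the fall was not tested. The share of cells with a Ramp3 UMI was 30.9% and 28.3% in CTRL and 14.7% and 16.8% in Trpv1-ADC, a difference of -13.8 points, and -7.44 points after thinning every cell to 2000 UMIs, which left out 3, 6, 7 and 2 shallower cells. With 2 mice against 2 the exact two-sided permutation test cannot go below p = 0.33, which is the value found for the unthinned share. Of the 34 tested genes within 2 Mb of Ramp3, 1 passed in this class (2.94%), against 7.63% on all of chromosome 11.

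Il17a CD4 T-like cells, helper cells that make IL-17A, also had less Ramp3 in Trpv1-ADC. The levels were 633 and 667 CPM in CTRL 1 and CTRL 2, and 341 and 315 CPM in Trpv1-ADC 1 and Trpv1-ADC 2. The log2 fold change was -1.02 ± 0.18 (SE, n = 2 against 2, edgeR adjusted p = 0.0281), 2.03-fold lower, where 0.382% of genes passed in the class. Each mouse gave only 45 to 73 such cells. Of the 61 tested markers in the 31 cell type lists none passed edgeR's test in this class, with 14 at an unadjusted p under 0.05 (9.12% of all genes in the class), and the summed CD4 effector markers were 5008, 5255, 4408 and 4153 CPM. The call was lost without the transcript-based doublet filter (-0.91, edgeR adjusted p = 0.08) and with finer clusters (-0.70, edgeR adjusted p = 0.0705).

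**Figure D2:**
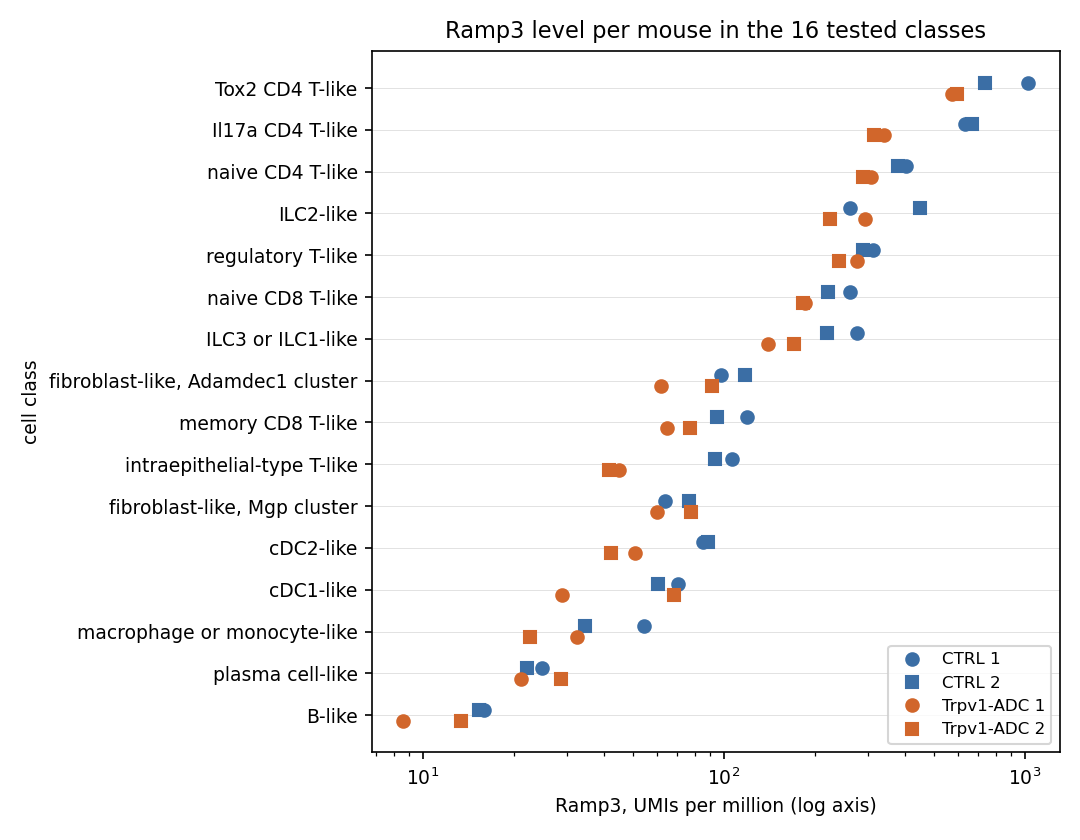
Ramp3 level (CPM, log axis) of each mouse in the 16 tested classes; blue points are CTRL mice, orange points Trpv1-ADC mice, and circles and squares are mouse 1 and mouse 2 of a group. Both CTRL points lie right of both Trpv1-ADC points in 12 of the 16 classes, among them the intraepithelial-type T-like cells (106 and 93.2 against 44.9 and 41.6).

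In most of the other classes Ramp3 leaned the same way without passing the test. Counting the classes that passed, its fitted difference was negative in 15 of the 16 classes (median -0.55). This pattern was shared by 1.86% of the 3877 genes tested in all 16. Both CTRL mice were above both Trpv1-ADC mice in 12 of the 16, where 17.9% of all gene and class pairs were arranged so. The unadjusted p was under 0.05 in 10 of the 16, against 9.45% of those pairs. Each of these tallies counts the Adamdec1 fibroblast-like cluster. Its Ramp3 was 94.4 CPM as a whole but 6.82 CPM in its barcodes without Ptprc or T cell receptor transcripts. The part of T cell RNA in its difference was not tested. All classes come from the same mice, so they are not separate evidence. ILC3 or ILC1-like cells had 277 and 219 CPM in CTRL against 140 and 170 CPM in Trpv1-ADC (-0.67 ± 0.145, edgeR adjusted p = 0.0507). Their finer cluster poorest in Ramp3 (48.5 CPM) held 23 and 32 CTRL and 63 and 92 Trpv1-ADC cells; with a common mix of the 3 finer clusters the levels were 263 and 199 CPM against 148 and 175 CPM. Tox2 CD4 T-like cells had 1027 and 738 CPM against 574 and 593 CPM (edgeR adjusted p = 0.231), with 98 cells in CTRL 1 and 295 to 402 in the other mice. cDC2-like cells had 85.2 and 88.6 CPM against 50.7 and 42.1 CPM (edgeR adjusted p = 0.474). The Mgp fibroblast-like cluster, the exception in direction among the 16 classes, had 63.8 and 76.4 CPM against 59.7 and 77.8 CPM.

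In naive CD4 T-like cells, the class that gave the most Ramp3 UMIs, the levels were 401 and 378 CPM in CTRL and 308 and 289 CPM in Trpv1-ADC (-0.39 ± 0.0913, edgeR adjusted p = 0.0503). The class joins 2 clusters that differ in Ramp3, 397 and 219 CPM over all mice. The cluster lower in Ramp3 held 70 and 115 cells in the CTRL mice and 289 and 550 in the Trpv1-ADC mice. Within the clusters the log2 fold changes were -0.19 and -0.09, with edgeR adjusted p of 0.944 and 0.992.

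Whether classes differed in their change was tested directly, as the interaction of class and group with the mouse as a block. This was done for the 2 classes where Ramp3 had passed, and intraepithelial-type T-like cells had the lowest Ramp3 estimate of all (-1.26). That Ramp3 fell more there than in each of the 15 other classes by the point estimate follows from this choice. Of these 15 differences 2 passed. The adjustment covers the genes of 1 comparison, not the number of comparisons. Against regulatory T-like cells the difference was -1.03 ± 0.194 (edgeR adjusted p = 0.00734, where 1.42% of genes passed), and the regulatory T-like levels were 312 and 289 CPM in CTRL and 277 and 240 CPM in Trpv1-ADC. Against naive CD8 T-like cells it was -0.87 ± 0.198 (edgeR adjusted p = 0.0475, where 0.688% passed). Both comparisons carry the shift in makeup described above. The naive CD8 T-like class joins 2 clusters as well, and the one poorer in Ramp3 held 44 and 125 CTRL and 277 and 500 Trpv1-ADC cells. Within these clusters Ramp3 differed by -0.25 and -0.01 (edgeR adjusted p of 0.806 and 1), and in the poorer one the mice overlapped. A finer cluster led by Ifit1 and Gbp2 had 53.6% of its cells in the naive CD8 T-like class, and only 9 cells in CTRL 1. Its Ramp3 was higher in Trpv1-ADC, at 121 and 145 CPM in CTRL against 163 and 192 CPM, and was not tested. In 1 of 4 finer clusters of the regulatory T-like class, led by Myo3b and Prg4, Ramp3 fell, from 418 and 403 CPM to 265 and 238 CPM (-0.71 ± 0.158, edgeR adjusted p = 0.0438, where 0.356% of genes passed). The first call was lost without CTRL 1 (edgeR adjusted p = 0.0572) or CTRL 2 (0.0818), and the second without CTRL 1 (0.266), CTRL 2 (0.313) or Trpv1-ADC 2 (0.185). Intraepithelial-type and Il17a CD4 T-like cells did not differ past the test (-0.21 ± 0.269, edgeR adjusted p = 0.949). For Il17a CD4 T-like cells the estimate was lower than in 14 of 15 classes and no difference passed, the lowest edgeR adjusted p being 0.301, with 4 unadjusted p under 0.05, where 6.14% of all genes and comparisons had one.

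Over all cells together Ramp3 differed little: 196 and 199 CPM in CTRL against 181 and 175 CPM in Trpv1-ADC (-0.13 ± 0.056, edgeR adjusted p = 0.285). The class makeup differed between the mice, so the level was also computed with the same mix of the 16 tested classes in every mouse, which hold 92.8% of the UMIs. In those classes Ramp3 was 198, 202, 182 and 178 CPM with each mouse's own mix, and 243, 211, 162 and 161 CPM with the common mix, in the order CTRL 1, CTRL 2, Trpv1-ADC 1, Trpv1-ADC 2. The gap between the groups was wider with the common mix. This mix evens out the classes, not the clusters inside them, whose shares differed between the mice in naive CD4 and naive CD8 T-like cells. Tox2 CD4 T-like cells, at 1027 CPM in CTRL 1, were 2.23% of its cells and 6.51% to 9.07% in the other mice. Naive CD8 T-like cells, at 207 CPM of Ramp3, were 11.2% and 8.64% of CTRL and 14.9% and 20.1% of Trpv1-ADC cells.

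**Figure D3:**
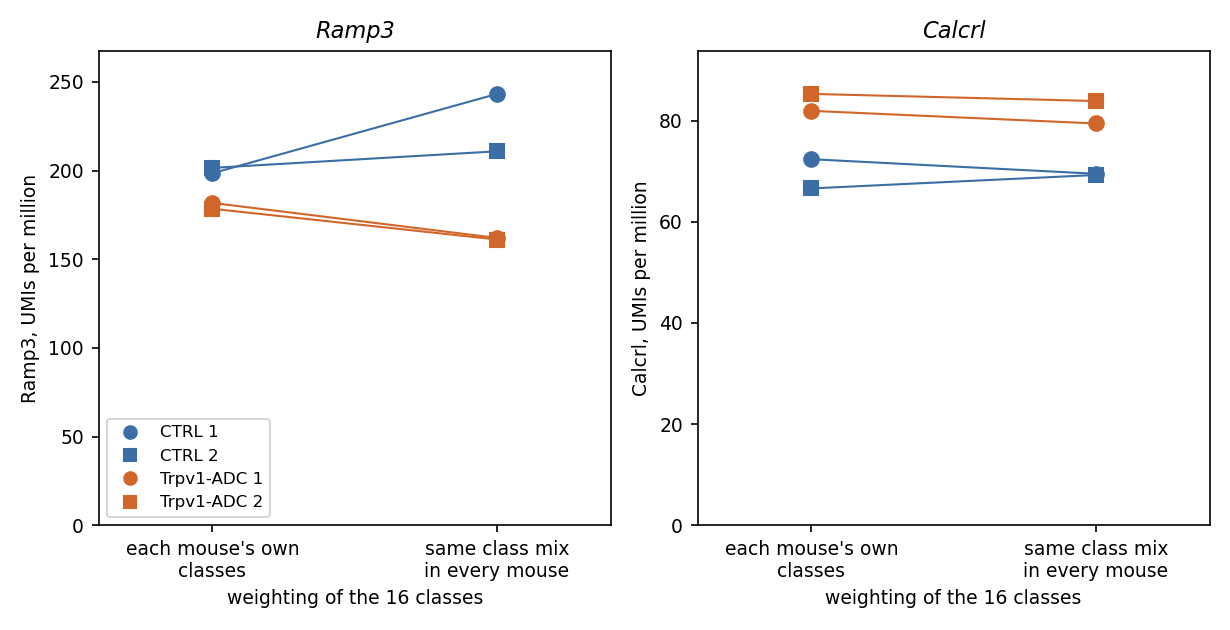
Ramp3 (left) and Calcrl (right) in CPM over the 16 tested classes, for each mouse with its own class makeup and with 1 makeup common to all mice; lines join the values of a mouse. Ramp3 goes from 198, 202, 182 and 178 to 243, 211, 162 and 161, so the groups move apart, while Calcrl stays higher in both Trpv1-ADC mice either way. Clusters within the classes were not evened out.

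Calcrl leaned the other way. Its fitted difference was positive in 11 of 16 classes (median 0.27), both Trpv1-ADC mice were above both CTRL mice in 7, where 22.4% of all gene and class pairs were arranged so, and no class passed. In ILC2-like cells it was 84.4 and 85.3 CPM in CTRL against 161 and 199 CPM in Trpv1-ADC (1.08 ± 0.276, edgeR adjusted p = 0.226). The share of ILC2-like cells with a Calcrl UMI went against this, at 36.7% and 35.1% in CTRL and 26.8% and 31.0% in Trpv1-ADC, so no order is read from the share. In memory CD8 T-like cells the levels were 25.6 and 37.7 CPM against 54.7 and 56.2 CPM (0.85 ± 0.226, edgeR adjusted p = 0.163). In Tox2 CD4 T-like cells, where Ramp3 was lower, Calcrl was 31.5 and 33.8 CPM against 65.9 and 51.2 CPM (edgeR adjusted p = 0.468). In intraepithelial-type T-like cells it was 48.5 and 61.5 CPM against 56.3 and 50.3 CPM, so the groups overlapped there.

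Over all cells Calcrl was 73.1 and 69.6 CPM in CTRL and 83.4 and 91.9 CPM in Trpv1-ADC (0.31 ± 0.0732, edgeR adjusted p = 0.128), where 0.245% of all genes passed. When the 5 non-immune clusters, together most frequent in CTRL 1 and all but the epithelial-like one higher in Calcrl than the whole sort, were left out, the levels were 52.1, 51.8, 70.0 and 77.8 CPM. Calcrl then rose past the test (0.50 ± 0.078, edgeR adjusted p = 0.033, where 1.6% of genes passed); this set of cells was chosen after seeing the data. With the common class mix Calcrl was 69.5 and 69.2 CPM in CTRL and 79.4 and 83.9 CPM in Trpv1-ADC.

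**Figure D4:**
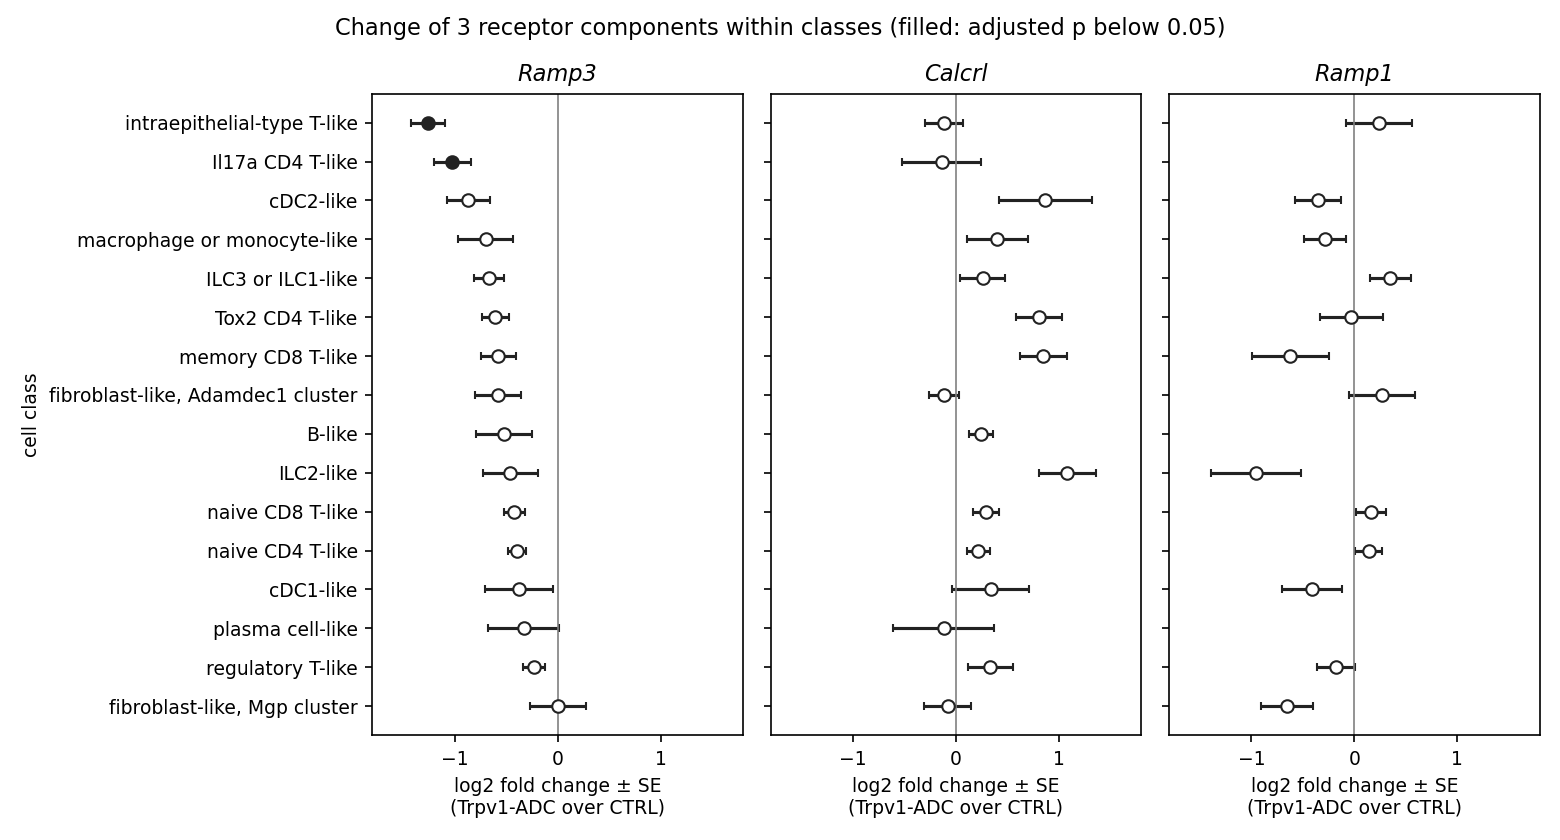
Log2 fold change of Trpv1-ADC over CTRL with its standard error for Ramp3, Calcrl and Ramp1 in each tested class (n = 2 against 2 mice); filled points passed an edgeR adjusted p of 0.05, and classes with too few counts have no point. Ramp3 lies left of 0 in 15 of 16 classes with 2 filled points, Calcrl lies right of 0 in 11 of 16, and Ramp1 lies left in 8 of 13.

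Ramp1 showed no shared direction, with 8 of 13 fitted differences negative and a lowest edgeR adjusted p of 0.539. The largest gap by level was in the Mgp fibroblast-like cluster, at 179 and 179 CPM in CTRL and 141 and 80.2 CPM in Trpv1-ADC (-0.65 ± 0.256, edgeR adjusted p = 0.691). In ILC2-like cells it was 59.1 and 52.7 CPM against 22.9 and 33.7 CPM, from 21, 21, 6 and 10 UMIs (edgeR adjusted p = 0.703). Ramp2 could be tested in the 2 fibroblast-like clusters, and in both the mice of the groups overlapped. In the Adamdec1 cluster it was 110 and 87.3 CPM in CTRL and 111 and 92.5 CPM in Trpv1-ADC (-0.03 ± 0.203, edgeR adjusted p = 0.984). Over all cells Ramp1 differed by 0.02 ± 0.14 and Ramp2 by -0.11 ± 0.234 on the log2 scale, with edgeR adjusted p of 0.964 and 0.84.

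Calca encodes the CGRP precursor and, by alternative splicing, calcitonin, which gene counts cannot tell apart. It gave 603 UMIs in 183 cells, and 316 of the UMIs (52.4%) were in ILC2-like cells, of which there were 189. There its level was 241 CPM and 70 cells had a UMI (37.0%, exact 95% binomial interval 30.1% to 44.3%), against 0.385% of B-like cells. Of all Calca UMIs, 85.6% were in barcodes with a UMI of Gata3, Il1rl1 or Il5, ILC2 genes that 17.3% of the other cells carried. Calca was not used in clustering, and it was among the top 10 genes of the ILC2-like cluster by fold. Pcsk1, a protease that trims neuropeptide precursors, was also highest in this class (45.0 CPM, 59 of its 191 UMIs).

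Calca over all cells fell in Trpv1-ADC. It was 7.59 and 7.89 CPM in CTRL and 2.54 and 2.87 CPM in Trpv1-ADC (-1.50 ± 0.162, n = 2 against 2, edgeR adjusted p = 0.046, where 0.197% of genes passed in the lower direction). The counts were 227, 221, 70 and 85 UMIs in 62, 61, 29 and 31 cells. Leaving out any of the 4 mice ended the call, with edgeR adjusted p from 0.0701 (-1.41 to -1.59), so the call needs all of them. Such a sum does not by itself separate fewer Calca-bearing cells from less Calca RNA per cell. The cells with a Calca UMI were fewer in both Trpv1-ADC mice, and the part of missed capture in this was not tested.

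Within ILC2-like cells the fall was not seen past the test. The levels were 172 and 359 CPM in CTRL and 210 and 192 CPM in Trpv1-ADC, so the groups overlapped (-0.41 ± 0.315, edgeR adjusted p = 0.834). The class held 49, 57, 41 and 42 cells of the 4 mice. The share of them with a Calca UMI was 38.8% and 43.9% in CTRL and 36.6% and 26.2% in Trpv1-ADC. Without the ILC2-like class, 166, 78, 15 and 28 Calca UMIs remained (-2.46 ± 0.451, edgeR adjusted p = 0.0972).

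Much of the difference outside ILC2-like cells lay in a few barcodes of CTRL 1. A single barcode in the cycling T-like cluster held 52 Calca UMIs, and without it the all-cell difference was -1.33 ± 0.213 (edgeR adjusted p = 0.0732). The Adamdec1 fibroblast-like cluster held 71 Calca UMIs in 13 cells, all in CTRL mice, and 66 of the 71 (93.0%) were in barcodes that also had Gata3, Il1rl1 or Il5, against 24.6% of its other cells. Among the 49 cells of that cluster without Ptprc or T cell receptor transcripts there was no Calca UMI. Without both clusters the all-cell difference was -1.03 ± 0.343 (edgeR adjusted p = 0.224). ILC3 or ILC1-like cells had 8.60 and 9.92 CPM in CTRL and 0.882 and 8.04 CPM in Trpv1-ADC, from 11, 13, 1 and 11 UMIs (edgeR adjusted p = 0.611).

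**Figure D5:**
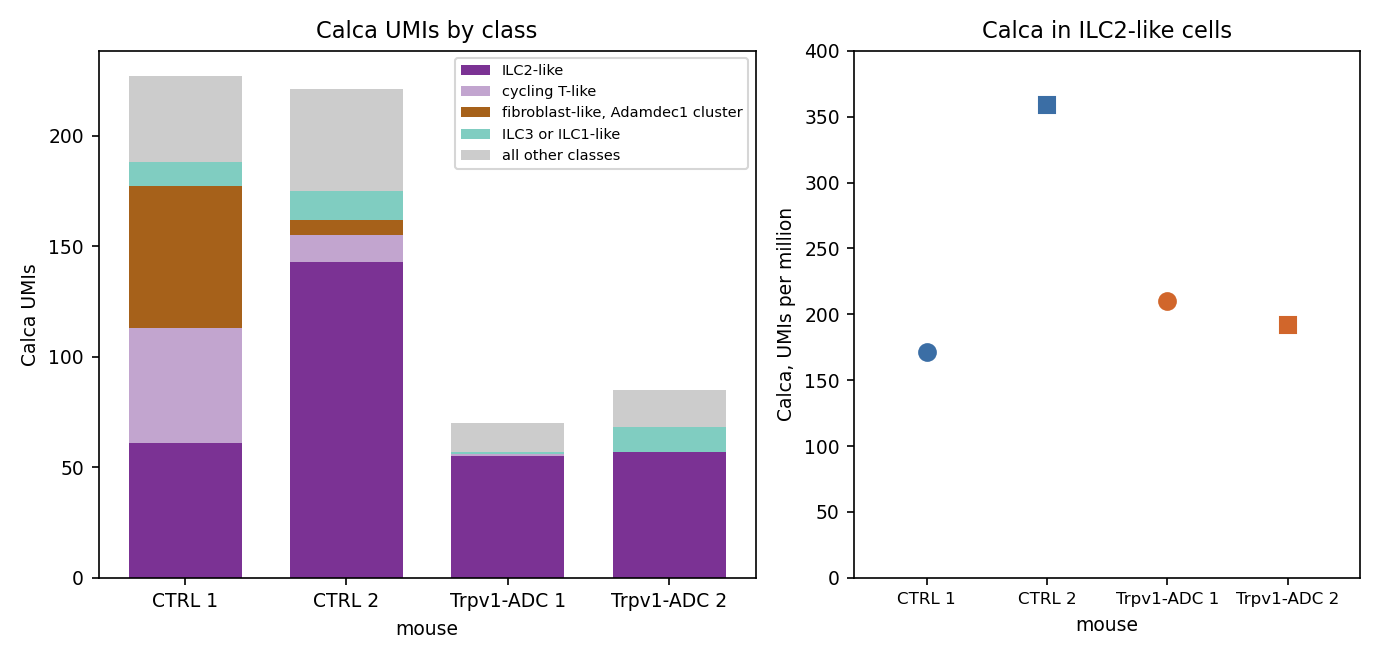
Calca by mouse: left, UMIs over all cells, stacked by class; right, level in ILC2-like cells in CPM (blue CTRL, orange Trpv1-ADC). The totals are 227 and 221 in CTRL and 70 and 85 in Trpv1-ADC, while in ILC2-like cells the groups overlap (172, 359, 210 and 192).

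Adm, the adrenomedullin gene, was a stromal and epithelial gene here. It was 88.5 CPM in the Mgp fibroblast-like cluster, 73.2 CPM in lymphatic endothelial-like, 40.6 CPM in epithelial-like and 22.2 CPM in Adamdec1 fibroblast-like cells. The larger immune classes were at 2.19 CPM or less. Over all cells Adm was 5.08 and 5.36 CPM in CTRL and 3.48 and 3.68 CPM in Trpv1-ADC (-0.53 ± 0.164, edgeR adjusted p = 0.188). Without the non-immune clusters it was 0.97 and 1.17 CPM in CTRL and 1.08 and 1.47 CPM in Trpv1-ADC, so the groups overlapped there. Within the Mgp fibroblast-like cluster the mice overlapped (73.5, 101, 69.7 and 129 CPM).

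The 7 lists of pathway genes, 59 genes in the table, gave the setting of these receptors. Of the other peptides, Calcb, which encodes beta-CGRP, had 26 UMIs, Adm2 had 1 and Iapp had 0, and the calcitonin receptor Calcr had 5. The scavenging receptors for adrenomedullin, Ackr3 and Gpr182, were highest in lymphatic endothelial-like cells (214 and 88.5 CPM). Adenylate cyclase 4 (Adcy4) was highest in endothelial-like cells at 102 CPM, from 101 of its 187 UMIs.

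In intraepithelial-type T-like cells 45 of the 59 genes were tested; 2 rose and 7 fell, where 3.61% and 3.78% of all genes in the class did; the part of the class makeup in these changes was not tested. The cAMP and CREB response list had 20 genes tested, of which 1 rose and 6 fell, with a median of -0.40 against 0.002 for all genes. The 6 that fell include the repressor Crem and phosphodiesterases, which dampen the signal, as well as early response genes. Junb, an AP-1 subunit, was 3078 and 3033 CPM in CTRL and 2226 and 1587 CPM in Trpv1-ADC (-0.74 ± 0.154, edgeR adjusted p = 0.0252). Nr4a3 was 431 and 426 CPM against 263 and 178 CPM (-1.01 ± 0.171, edgeR adjusted p = 0.00709). Per1, a clock gene with cyclic AMP response elements, was 128 and 128 CPM against 91.2 and 80.7 CPM (-0.63 ± 0.138, edgeR adjusted p = 0.019). The others that fell were Crem (-1.01), Pde4d (-0.78) and Pde10a (-1.95).

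Nr4a1, an orphan nuclear receptor of the same response list, rose in these cells, from 257 and 291 CPM to 432 and 380 CPM (0.50 ± 0.132, edgeR adjusted p = 0.0395). Of the 8 tested genes for Gs, adenylate cyclase and kinase A, Adcy7, an adenylate cyclase of blood cells, rose from 71.6 and 75.9 CPM to 99.7 and 129 CPM (edgeR adjusted p = 0.0425). Prkar1a, the regulatory subunit that holds kinase A inactive, fell from 343 and 333 CPM to 266 and 253 CPM (edgeR adjusted p = 0.0465). Gnas, which encodes Gs alpha, was 813 and 830 CPM against 972 and 975 CPM (edgeR adjusted p = 0.317). No gene passed among the CREB factors and coactivators (6 tested), receptor desensitisation (6), peptide processing and breakdown (4) and other receptor proteins (1). The lowest adjusted values there were for Creb1 (0.44, edgeR adjusted p = 0.072) and Pam, which amidates peptides (0.62, edgeR adjusted p = 0.0731).

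In Il17a CD4 T-like cells none of the 38 tested pathway genes passed edgeR's test, and 8 of them had an unadjusted p under 0.05, against 9.12% of all genes there. The lowest was Rgs2, a brake on G protein signalling, at 594 and 564 CPM in CTRL and 301 and 341 CPM in Trpv1-ADC (-0.88 ± 0.184, edgeR adjusted p = 0.0648). Furin, a precursor protease, was 616 and 667 CPM against 321 and 430 CPM (edgeR adjusted p = 0.119). Crem and Nr4a1 were on opposite sides, at -0.79 and 0.80 (edgeR adjusted p of 0.175 and 0.235). In ILC2-like cells, where 0.127% of all genes passed, none of the 36 tested pathway genes passed edgeR's test and 5 had an unadjusted p under 0.05 (6.77% of all genes). In naive CD4 T-like cells, where 0.2% of all genes passed, none of 46 did and 7 had an unadjusted p under 0.05 (7.63% of all genes).

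In 4 other classes some pathway genes passed, and they are named here after their values were seen. In macrophage or monocyte-like cells (0.748% of all genes passed) Crem and Pde4b, a phosphodiesterase, fell by 0.98 and 0.84 on the log2 scale, of 44 tested. In regulatory T-like cells (0.332%) Areg, which encodes the growth factor amphiregulin, and Fosb fell by 0.64 and 0.56, of 46. In ILC3 or ILC1-like cells (0.935%) Areg and Pde10a fell by 1.299 and 1.08 while Fos rose by 0.82, of 46. In memory CD8 T-like cells (0.194%) Atf3, a stress-induced factor, rose by 1.04, of 43. Over all cells Furin fell by 0.65, of 54 tested. The edgeR adjusted p of these 9 values lay between 0.00433 and 0.046.

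The genes whose level across the 16 tested classes was most like that of each member were found by Pearson's r on log2(CPM + 1), among 11156 genes, with the mice summed. Classes share libraries and differ in depth, so these values only describe. Ramp3 was most like Aebp2 (r = 0.947), Icos (0.935), Gm37039, Gstp3 and Bcl11b (0.892), and Icos and Bcl11b are T cell genes. Ramp2 was most like Ltbp1 (0.995), Bmp4, Srpx2, Mfap4 and Serpina3n, genes of stromal cells. Adm was most like Medag (0.977), Meis2, Dpep1, Zfhx4 and Col6a3. Calca was most like Ret (0.927), Npnt, Ptpn9, Stab2 and Il17rb (0.903), the last of them an ILC2 receptor gene. Calcrl was most like Smug1 (0.881), Htatsf1, Atf7, Ggps1 and Arhgap35, and Ramp1 like Spr (0.858), Rarg, Acad8 and Eef1akmt1. Between members, Calcrl had r of 0.128 with Ramp1, 0.62 with Ramp2 and 0.269 with Ramp3, and Ramp2 had 0.88 with Adm.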

How the data were processed

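For 23063 barcodes the deposited files hold whole-number UMI counts of genes and of hashtags, not normalized; the submitters' processing notes list the mm10 build, Seurat and Cell Ranger. The series' design text names the 5' v3 platform and the labels' extract protocol 3' v3 chemistry. A barcode went to a mouse when its top tag of HT1, HT3, HT7 and HT9 had at least 10 counts and 3 times the next. Cells needed 500 UMIs, 200 genes and at most 10% mitochondrial UMIs. Of 22729 barcodes past this, 2997 were tag doublets and 161 had too few tag counts; Scrublet removed 2052 more (10.5% of single-tag barcodes, and it marked 45.2% of tag doublets).

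Cells were clustered with scanpy 1.11.5 (2000 variable genes without the 6 members and the pathway genes, 30 components, Leiden at resolution 1, lymphoid clusters again). The sums of each class in each mouse were compared with edgeR 4.0.16 (quasi-likelihood, TMM, filterByExpr, R 4.3.3), with Benjamini-Hochberg adjustment over all genes tested; the SE is the absolute log2 fold change over the root of F. The scripts were tested on simulated data. Named pathway genes were those past the test in a class where a member passed and up to 4 per list with the lowest p; the 5 most alike genes were named per member, except 1 that is not reported here. Alternatives used HTODemux (Seurat 5.3.0), DESeq2 1.42.0, RLE factors, stricter or no filters, resolution 2, and each mouse left out. Members and lists were chosen with earlier results of these data known.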

Additional observations from a re-analysis of the deposited data

Results flagged for a closer look

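Ramp3 differed past the test in its change between intraepithelial-type T-like cells and 2 of 15 other classes. Its change from CTRL to Trpv1-ADC was lower in intraepithelial-type T-like cells than in regulatory T-like cells by -1.03 ± 0.194 on the log2 scale (edgeR quasi-likelihood interaction test with the mouse as a block, adjusted p = 0.00734), from changes of -1.26 and -0.23. It was lower than in naive CD8 T-like cells by -0.87 ± 0.198 (edgeR adjusted p = 0.0475), from changes of -1.26 and -0.42. In each of the 3 classes both CTRL mice were above both Trpv1-ADC mice. So arranged were 21.7% of all tested genes in intraepithelial-type, 18.4% in regulatory and 15.5% in naive CD8 T-like cells. The 2 values share the intraepithelial-type T-like cells, and each lost its call when either CTRL mouse was left out. The clusters within the intraepithelial-type and the naive CD8 T-like classes held different shares of the CTRL and Trpv1-ADC cells. Within the 2 naive CD8 T-like clusters Ramp3 differed by -0.25 and -0.01. In the finer regulatory T-like cluster led by Myo3b and Prg4 it fell (-0.71 ± 0.158, edgeR adjusted p = 0.0438, where 0.356% of genes passed). The other finer clusters of that class did not pass.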

How the results depend on the processing

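Ramp3 in the intraepithelial-type T-like class passed under the 8 alternatives that keep all mice and the whole class (-1.32 to -0.96, edgeR or DESeq2 adjusted p up to 0.00253), with a mouse left out (-1.37 to -1.17), and in both clusters of the class, but in 1 of its 3 finer clusters (-1.27, against -0.69 and -0.46). None of the 18 member levels recomputed, 3 classes per member, moved by more than the spread between mice with finer clusters or stricter cells. The count of member and class pairs past the test, 2 as reported, was 1 without Scrublet, 4 with RLE factors, 7 with no low-count filter, 5 with the replicate block, and 2 to 8 with a mouse left out. The count of classes from which the Ramp3 change in intraepithelial-type T-like cells differed, 2 as reported, was 5 with no low-count filter and 0 to 8 with a mouse left out. Over all cells, Calcrl passed with no low-count filter (0.31, adjusted p = 0.0238) and without the non-immune clusters (0.50, 0.033). Calca missed the threshold with stricter cells (-1.51, 0.052), with a mouse left out (-1.59 to -1.41), without ILC2-like cells (-2.46), without the cycling T-like and Adamdec1 clusters (-1.03) and without its richest barcode (-1.33). Ramp1, 0.02 as reported, changed sign without CTRL 2 (-0.16) and without Trpv1-ADC 2 (-0.06), in a range of -0.16 to 0.22. Ramp2, -0.11 as reported, changed sign with HTODemux (0.21), without CTRL 1 (0.26, in a range of -0.41 to 0.26) and without the non-immune clusters (0.32), and Adm did without those clusters (0.24). The difference in the share of ILC2-like cells with Calcrl, -7.02 points, was 1.17 points in thinned cells. The cause of these shifts was not tested.

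No label ties mice by number, so the mouse numbers were not taken as pairs, and whether they pair the animals is not known. Same-numbered mice correlated at 0.071 over all cells and at -0.104 to 0.254 in the 16 tested classes, which cannot decide it. With the number as a replicate block the 5 pairs past the test add Calcrl in ILC2-like cells (1.08, adjusted p = 0.0431), Ramp3 in ILC3 or ILC1-like (-0.66, 0.0375) and Tox2 CD4 T-like cells (-0.60, 0.00218); Calca over all cells was -1.50 (0.0254). Cells without transcripts of a low gene such as Calca or Adm cannot be told from missed capture, and 2 mice a group limit every test. DESeq2 gave an adjusted p for 33 pairs. The pools without named clusters or barcodes were chosen after seeing the data.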
